A study of Mus musculus with 9 samples.

Results

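The genes described here build the acrosome, carry sperm-egg binding and fusion, fold sperm surface proteins and compact the sperm nucleus. They were 39 genes named by function, all of them found in the RefSeq annotation of the mouse genome build mm10, out of 49603 annotated genes of which 21779 are protein-coding. For each gene, every interval of the 2 deposited peak lists that touched the annotated span or the 2 kb on either side of it was taken, and the values below are the authors' linear fold enrichment over input in each of 3 replicates. The study captured chromatin bound by a long noncoding RNA in male germ cells. Germ cells were isolated from the testis of wild-type ICR mice on postnatal day 35, cross-linked, lysed and sonicated, and biotinylated probes against the RNA Gm4665 pulled down the chromatin attached to it. The 9 samples were 3 captures titled LncRNA-20, taken here as the Gm4665 probes, 3 titled LacZ, taken as the control probes, and 3 of input DNA; strain, age and tissue were the same in all. The LacZ probe set is named only in the sample titles and file headers, since the protocol text repeats the Gm4665 capture for every sample. No label ties a replicate to an animal or a culture, so the spread between replicates may be technical in part.

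Spermatids, the haploid cells that follow meiosis, turn into sperm without further division. A Golgi-derived vesicle, the acrosome, spreads over the nucleus and stores the enzymes and receptors that meet the egg, and the histones of the nucleus are exchanged first for transition proteins and then for protamines. Sperm surface proteins of the ADAM family are folded in the endoplasmic reticulum by testis-specific chaperones before they reach the membrane. Many genes of this programme are transcribed in round spermatids and their mRNAs are stored for later translation. Transcript levels were not measured in this series, so nothing below bears on how strongly any of these genes was expressed.

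The Gm4665 list held 38711 intervals and the LacZ list 9448 on chromosomes 1 to 19, X and Y. Gm4665 intervals lay at 16 of the 39 genes and LacZ intervals at 3, while 22 genes had neither. The Gm4665 share, 41.0%, stood beside 39.3% of all protein-coding genes and 27.1% of all annotated genes. The LacZ share, 7.69%, stood beside 16.9% of protein-coding genes and 10.6% of all genes. The Gm4665 share was thus close to that of protein-coding genes in general, and the LacZ count rested on only 3 genes. The lists were made and normalized separately and differ in length, so each was read against its own background and no test was made across them. A list states only where the peak caller placed an interval; absence from it does not exclude signal below its threshold.

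The share followed gene length. Among genes with a span under 5 kb, 2 of 15 had a Gm4665 interval, beside 9.99% of protein-coding genes of that size. Between 5 and 20 kb the count was 5 of 10, beside 25.7%, and between 20 and 100 kb it was 6 of 11, beside 54.1%. All 3 genes over 100 kb (Spata16, Zpbp and Dpy19l2) had an interval, as did 91.4% of protein-coding genes that long. LacZ intervals lay at 0 of 15, 1 of 10, 0 of 11 and 2 of 3 genes in the same order of size, beside 3.34%, 8.45%, 20.5% and 56.8% of protein-coding genes. Per unit of sequence, the merged windows of the 39 genes (1.44 Mb) held 27 Gm4665 intervals, or 18.7 per Mb, with a 95% Poisson interval of 12.3 to 27.2 that covers counting error only. The windows of all annotated genes held 16.3 per Mb. The 3 LacZ intervals came to 2.08 per Mb (0.429 to 6.08), beside 4.42 per Mb over all genes, so in each list the density over all genes lay inside the interval of the 39.

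**Figure D1:**
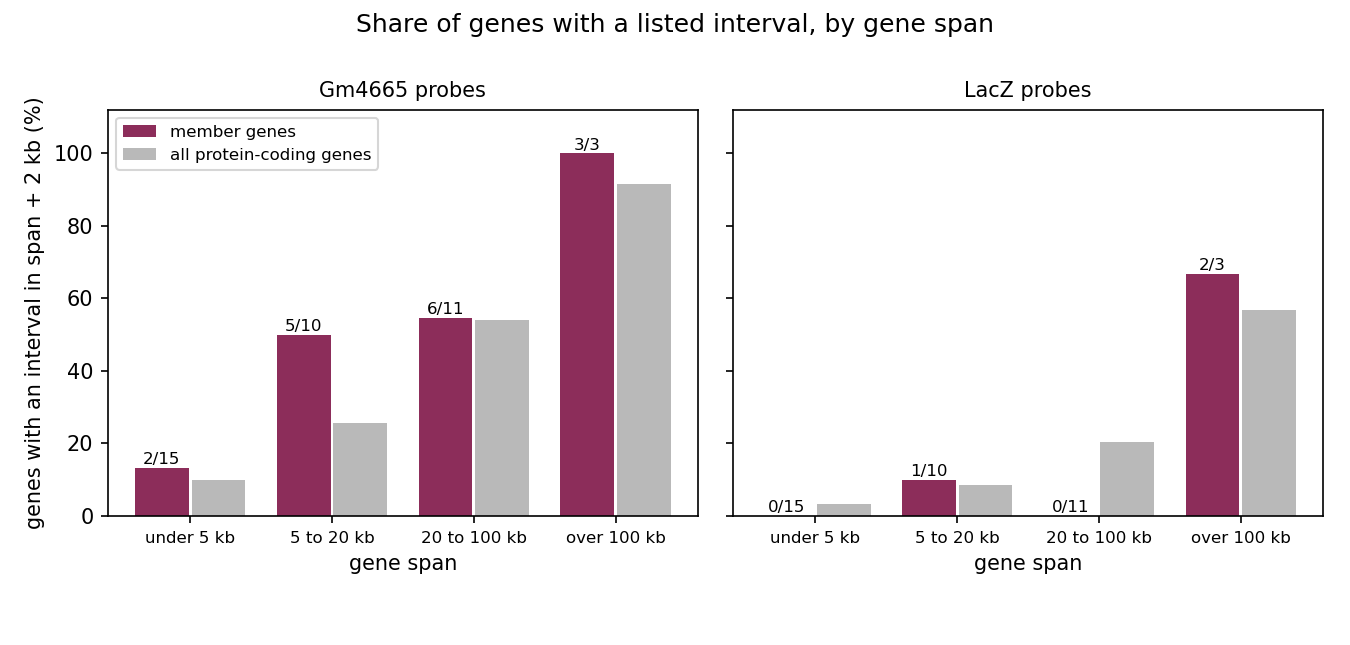
Percentage of genes (vertical axis) with at least 1 listed interval in the gene span plus 2 kb, for the 39 genes (dark bars, with counts) and all protein-coding genes (grey bars), in 4 classes of gene span, for Gm4665 probes (left) and LacZ probes (right). With Gm4665 probes shares climb with gene span in both gene sets, while with LacZ probes those of the 39 genes (0, 1, 0 and 2 genes) do not follow it evenly; the 39 genes stand farthest above the grey bars at 5 to 20 kb with Gm4665 probes (5 of 10, beside 25.7%).

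The 27 intervals were of ordinary strength for the list. Their median mean fold was 12.2, beside 10.1 for all intervals at annotated genes, and the medians by replicate were 13.3, 9.95 and 12.8 in replicates 1, 2 and 3, beside 11.6, 8.50 and 10.3. Mean folds ran from 4.41 to 28.3, where the strongest interval at any gene had 143. Of the 27, 18 were above the median of the whole list and 4 were in its top 10%. Their median width was 784 bp, beside 599 bp, and the summit coverage deposited for each interval ran from 18 to 116 reads, with a median of 44, beside 37. Replicate 1 gave the highest fold in 20 of the 27 (74.1%), as it did in 56.7% of intervals at all genes. Replicate 2 gave the lowest in 19 (70.4%), as it did in 61.2% of intervals at all genes. The highest replicate exceeded the lowest by a median factor of 1.48, and by 1.05 to 2.68 across the 27.

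**Figure D2:**
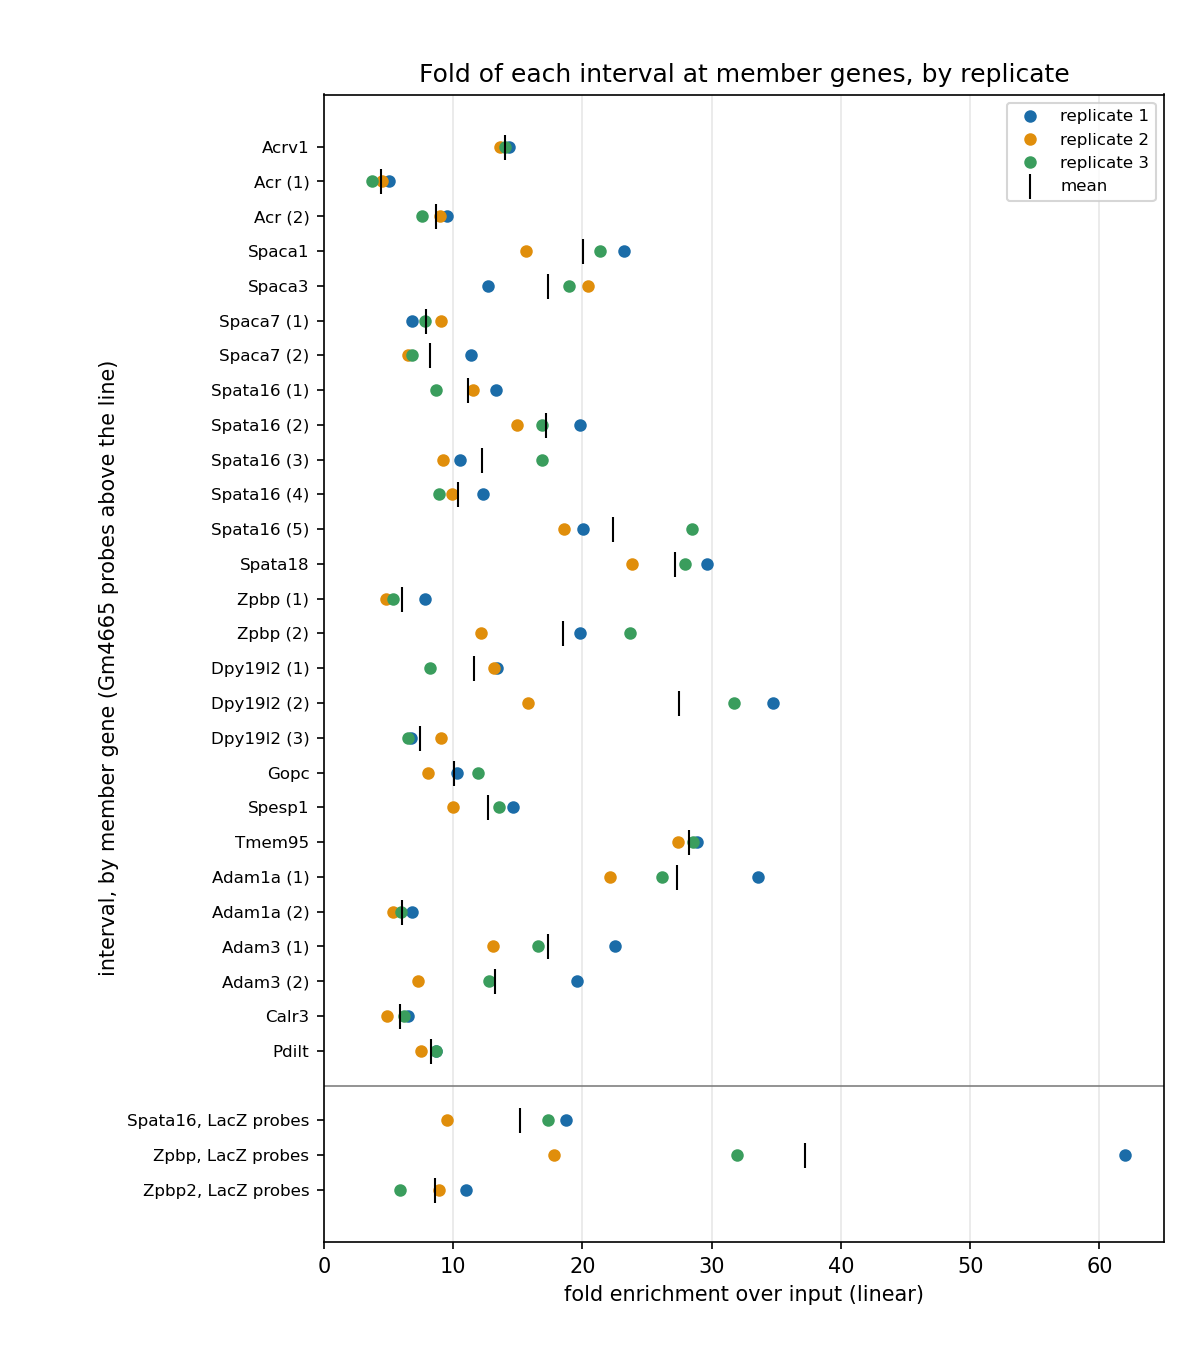
Linear fold enrichment over input (horizontal axis) of each of the 27 Gm4665 intervals (above the line) and the 3 LacZ intervals (below it) at the 39 genes; coloured points are the 3 replicates, black ticks their mean, and numbers in brackets count intervals of a gene along the chromosome. The 4 strongest Gm4665 intervals, at Tmem95, Dpy19l2, Adam1a and Spata18, have means of 27.1 to 28.3, and the LacZ interval at Zpbp reaches 62.0 in replicate 1.

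Start sites and strand came from a RefSeq promoter table that lists 34 of the 39 genes (Acr, Adam2, Adam3, Adam5 and Clgn are not in it). Of these 34, 4 had a Gm4665 interval within 2 kb of a listed start site: Adam1a, Dpy19l2, Tmem95 and Acrv1. That is 11.8%, beside 8.42% of protein-coding genes. The intervals at Tmem95 and Acrv1 also lay within 2 kb of a start site of another gene, Kctd11 and 1700027I24Rik respectively. A LacZ interval lay that close at 0 of the 34, beside 2.71%. The 300 bp promoter window itself, from 250 bases before the start site, was touched by a Gm4665 interval at 2 genes, Adam1a and Dpy19l2, beside 1.76% of protein-coding genes; a LacZ interval touched none of the 34, beside 0.8%. These shares rest on 4 and 2 genes, and no difference from the background was tested. These 2 windows are shown because they are the promoter sequence that an interval reached; they are RefSeq sequences of build GRCm38.p6 (mm10), read 5′ to 3′ on the gene's strand, with the bases inside the Gm4665 interval in capitals.
Adam1a, chr5:121521646-121521945, minus strand: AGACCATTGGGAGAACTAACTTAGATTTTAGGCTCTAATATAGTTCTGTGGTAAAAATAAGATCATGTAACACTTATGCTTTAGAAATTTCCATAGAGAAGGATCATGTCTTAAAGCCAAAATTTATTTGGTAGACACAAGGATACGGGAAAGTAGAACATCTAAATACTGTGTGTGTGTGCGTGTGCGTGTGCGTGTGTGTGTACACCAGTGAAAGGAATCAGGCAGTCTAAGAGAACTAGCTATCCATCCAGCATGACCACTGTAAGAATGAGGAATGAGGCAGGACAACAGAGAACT
Dpy19l2, chr9:24696244-24696543, minus strand: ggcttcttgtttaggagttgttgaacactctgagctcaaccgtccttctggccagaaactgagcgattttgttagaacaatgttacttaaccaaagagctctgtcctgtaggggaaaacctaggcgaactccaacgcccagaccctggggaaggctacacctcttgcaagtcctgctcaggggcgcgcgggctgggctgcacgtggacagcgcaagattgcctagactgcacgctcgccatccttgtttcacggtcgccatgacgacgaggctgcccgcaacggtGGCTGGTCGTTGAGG
The interval took in all 300 bases at Adam1a and only the last 15 at Dpy19l2, which lie downstream of the start site. Of the window's bases, 39.7% were G or C at Adam1a and 56.7% at Dpy19l2, where the median was 53.3% over the 38 windows of the 34 genes and 56.3% over protein-coding genes.

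Genes of nuclear compaction had no interval in either list. The transition protein genes Tnp1 and Tnp2 and the protamine genes Prm1, Prm2 and Prm3 span only 407 to 826 bp each, a size at which few genes had an interval (9.99% for spans under 5 kb). Prm1, Prm2, Prm3 and Tnp2 stand within 8889 bp of each other on chromosome 16 (10787935 to 10796823), so they are not independent of each other, and the same interval is the nearest to all 4. It began at 10752031, 35.0 kb from Tnp2 and 43.4 kb from Prm1, and had folds of 19.8, 7.04 and 13.0 (mean 13.3 ± 6.37, SD, n = 3). Tnp1 on chromosome 1 had its nearest Gm4665 interval 18.2 kb away, with folds of 16.7, 6.56 and 13.2, inside the gene Gm31137. The nearest LacZ intervals were farther off, at 109 kb from Tnp2 and 83.7 kb from Tnp1. Across the 39 genes the median distance to the nearest Gm4665 interval was 5.50 kb, beside 7.92 kb for protein-coding genes, and that to the nearest LacZ interval 61.8 kb, beside 64.8 kb.

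The spermatid kinases and the testis poly(A) polymerase were likewise without an interval. Tssk1, Tssk2, Tssk3 and Tssk6 encode testis-specific serine kinases of late spermatids, and Papolb lengthens poly(A) tails in the spermatid cytoplasm. All 5 genes are short, at 1335 to 2723 bp, and only 9.99% of protein-coding genes under 5 kb had a Gm4665 interval. Papolb had the nearest Gm4665 interval, 6.83 kb off inside Radil, with folds of 13.6, 7.76 and 6.72. At Tssk3 the distance was 9.92 kb and at Tssk6 14.2 kb. Tssk1 and Tssk2 adjoin each other within 5822 bp and shared a nearest interval at Slc25a1, 30.4 and 26.1 kb away.

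**Figure D3:**
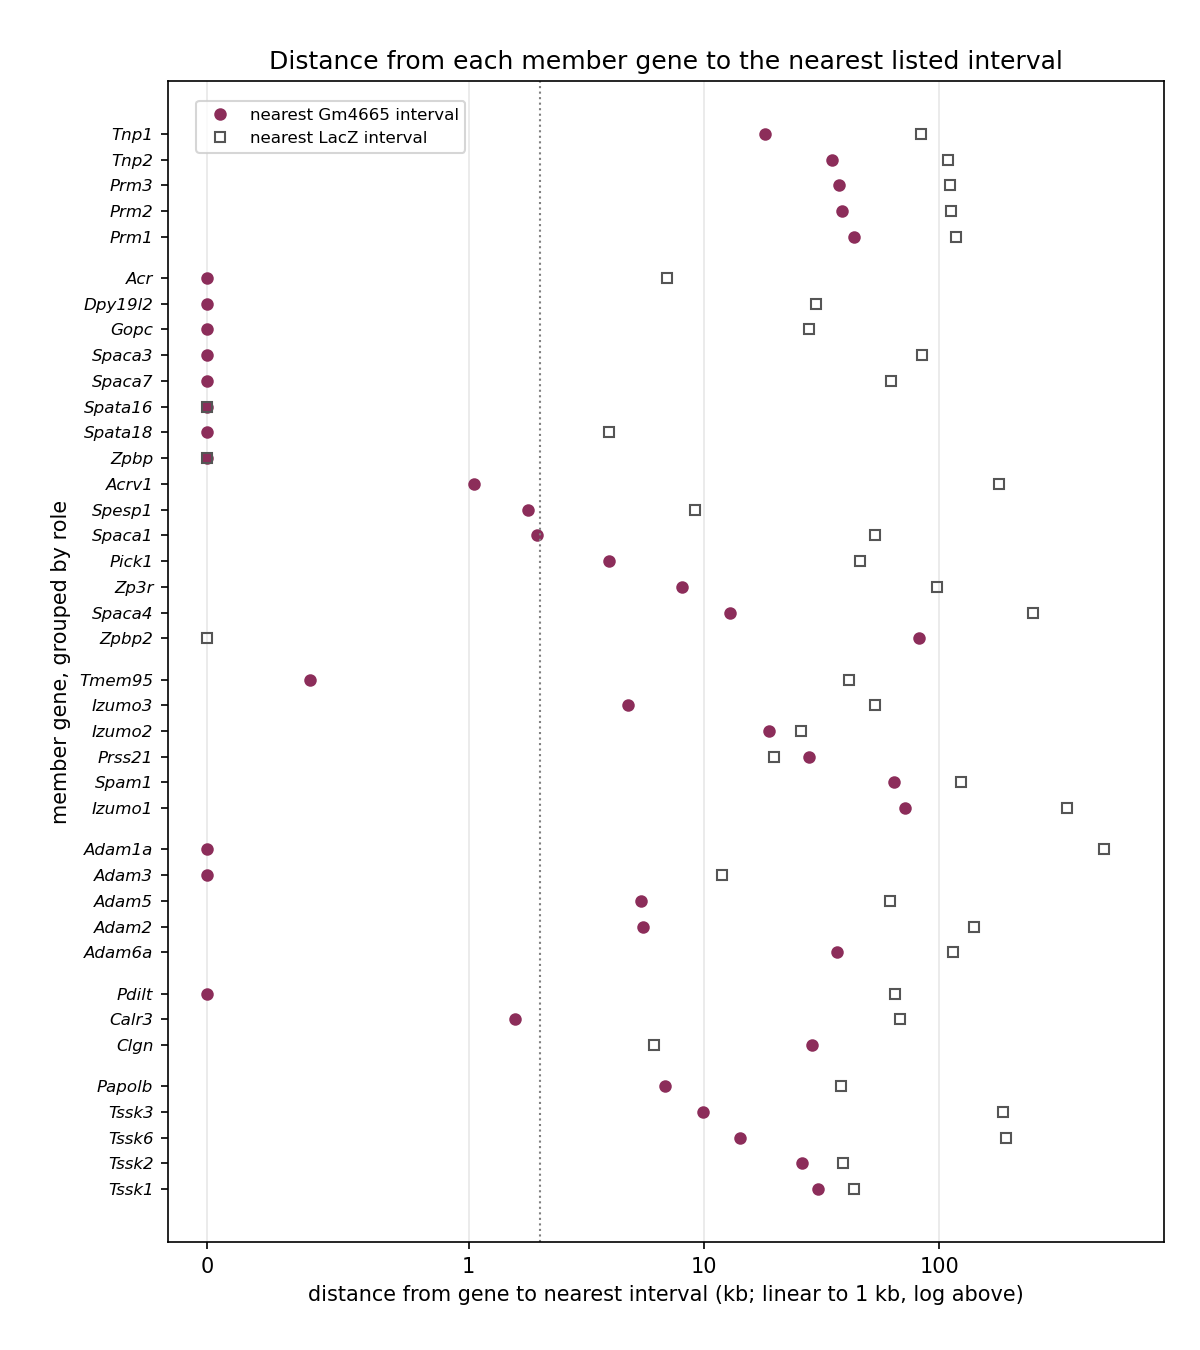
Distance in kb (horizontal axis, linear to 1 kb and logarithmic above) from each of the 39 genes to the nearest Gm4665 interval (filled circles) and the nearest LacZ interval (open squares), grouped by role; 0 means that the interval overlaps the gene, and the dotted line marks the 2 kb flank. The 5 compaction genes and the 5 kinase and polymerase genes all lie to the right of the line, from 6.83 kb at Papolb to 43.4 kb at Prm1 with Gm4665 probes.

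Genes of the acrosome held most of the intervals. Of 15, 11 had a Gm4665 interval and together held 20 of the 27; 3 had a LacZ interval and 2 had both. The 11 of 15 (73.3%) stand beside 39.3% of protein-coding genes, and the 3 of 15 with a LacZ interval beside 16.9%. These genes also took up 69.6% of the merged windows (1004 kb), near their 74.1% of the Gm4665 intervals. Dpy19l2, whose product anchors the acrosome at the inner nuclear membrane and is lost in some forms of human globozoospermia, had 3 intervals on chromosome 9. The strongest ran from 24692386 to 24693682, 2611 bp downstream of the listed start site, with folds of 34.8, 15.8 and 31.7 (mean 27.4 ± 10.2, SD, n = 3). Replicate 2 was far below the other replicates there, and without it the mean was 33.3. A weaker interval, from 24695808 to 24696258, began 35 bp downstream of the start site and had folds of 6.74, 9.05 and 6.50, with replicate 2 the highest. The remaining one, near the 3′ end at 24558698 to 24559718, had folds of 13.4, 13.2 and 8.21.

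Spata16, which encodes a Golgi protein of the forming acrosome, is the longest of the 39 genes at 345630 bp and held 5 Gm4665 intervals on chromosome 3, the first of them 39.9% of the way along the gene. The strongest, from 26955116 to 26956212, had folds of 20.04, 18.6 and 28.5 (mean 22.4 ± 5.35, SD, n = 3). The next, from 26885079 to 26885993, had 19.8, 15.0 and 16.9, and a neighbour farther along, from 26890452 to 26891235, had 10.5, 9.19 and 16.9. Replicate 3 gave this neighbour and the interval before it the same fold of 16.9, while replicates 1 and 2 set them apart. The other 2, at 26775352 and 26918363, had mean folds of 11.2 and 10.3. The interval at 26918363 was the only one of the 27 that coincided with a LacZ interval. Its Gm4665 folds were 12.3, 9.88 and 8.89, and its 762 bp lay entirely within a LacZ interval from 26918233 to 26919140, whose folds were 18.7, 9.55 and 17.3.

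Zpbp and Zpbp2 encode related acrosomal matrix proteins that bind the zona pellucida, the coat of the egg. Zpbp had Gm4665 folds of 19.8, 12.1 and 23.7 in an interval from 11413151 to 11413961 on chromosome 11, and 7.84, 4.79 and 5.37 in a short interval near its 3′ end, from 11288721 to 11288999. The strongest LacZ interval at any of the 39 genes was also in Zpbp, from 11436709 to 11438141, with folds of 62.0, 17.8 and 32.0 (mean 37.2 ± 22.6, SD, n = 3) and percentile 96.9 of the LacZ list. Without LacZ replicate 1, which was the highest in 96.0% of LacZ intervals at all genes, its mean was 24.9. It covered the pseudogene Gm12599 and lay more than 20 kb from either Gm4665 interval of the gene. At Zpbp2 only a LacZ interval was listed, from 98554949 to 98555734, with folds of 11.0, 8.90 and 5.88, low in its list (percentile 10.2). The nearest Gm4665 interval was 81.9 kb from Zpbp2, the largest such distance among the 39.

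Spata18, counted here with the acrosome genes although its product is known as a mitochondrial quality control protein, had a wide interval of 1590 bp toward the 3′ end of the gene, from 73672825 to 73674414 on chromosome 5. Its folds were 29.7, 23.8 and 28.0 (mean 27.1 ± 3.01, SD, n = 3), percentile 91.7 of the Gm4665 list. A LacZ interval of mean fold 35.4 lay 3.93 kb outside the gene, at Sgcb. Acrosin, the serine protease encoded by Acr, was represented by 2 weak intervals near the lower-coordinate end of the gene on chromosome 15. The first, from 89568844 to 89569108, had folds of 5.06, 4.49 and 3.68, the lowest mean of the 27 at 4.41 ± 0.693 and percentile 0.462 of the list. The second, from 89569820 to 89570294, had 9.49, 8.96 and 7.59, so every replicate was above every replicate of the first.

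The Spaca genes are named for sperm acrosome associated proteins. Spaca1, a membrane protein needed for acrosome shape, had folds of 23.2, 15.6 and 21.4 in an interval from 34022035 to 34022918 on chromosome 4, past the 3′ end of the gene. Spaca3, which encodes a lysozyme-like protein, had folds of 12.7, 20.4 and 18.97 in the middle of the gene, from 80862115 to 80863125 on chromosome 11. It was the only interval of the 27 with a mean above 10 in which replicate 1 was the lowest; its summit coverage of 116 reads was the highest of the 27. Spaca7 had 2 weaker intervals in the 3′ part of the gene on chromosome 8, with folds of 6.84, 9.02 and 7.81 at 12597335 to 12597794 and 11.4, 6.46 and 6.82 at 12598473 to 12599418. The replicate ranges of these 2 overlapped. Spaca4, a short gene of 710 bp, had no interval, and its nearest lay 12.8 kb off in Sphk2 with a mean fold of 6.60.

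Acrv1 encodes the acrosomal vesicle protein SP-10. Its interval lay 1057 bp upstream of the start site, from 36691411 to 36692163 on chromosome 9, and had the closest replicates of the acrosome genes, with folds of 14.3, 13.6 and 14.0 (mean 14.0 ± 0.358, SD, n = 3). The whole interval also lay inside the lncRNA gene 1700027I24Rik, so it cannot be assigned to Acrv1 alone. Spesp1, a protein of the equatorial segment where fusion takes place, had folds of 14.7, 9.95 and 13.6 in an interval 1779 bp past its 3′ end, from 62267912 to 62268950 on chromosome 9. Gopc, which steers vesicles from the Golgi to the acrosome, had 10.3, 8.01 and 11.9 inside the gene, from 52347370 to 52347872 on chromosome 10. Pick1, a trafficking partner of Gopc, and Zp3r, an acrosomal matrix protein, had none. The nearest lay 3.96 kb from Pick1 in Slc16a8 (folds of 8.43, 3.87 and 6.67) and 8.05 kb from Zp3r (7.26, 4.83 and 6.82).

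The 6 genes of sperm-egg recognition and fusion span 2118 to 11151 bp. A Gm4665 interval lay at 9.99% of protein-coding genes under 5 kb and at 25.7% of those of 5 to 20 kb. Of the 6 genes, Tmem95 alone had an interval. Its product is a sperm membrane protein needed for fertilization, and the interval was the strongest of the 27 by mean fold. It ran from 69878564 to 69879817 on chromosome 11, 393 bp beyond the annotated 5′ end and 509 bp upstream of the listed start site. Folds were 28.9, 27.4 and 28.5 (mean 28.3 ± 0.748, SD, n = 3), the narrowest spread relative to the mean among the 4 strongest intervals. All 1254 bp of it also lay inside the neighbouring protein-coding gene Kctd11, whose own start site it did not cover, so position does not assign it to Tmem95. Which interval ranked first was not settled by 3 replicates: without replicate 2 the Dpy19l2 interval led with 33.3 while Tmem95 had 28.7, and the same 4 intervals led whichever replicate was left out.

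Izumo1, the sperm receptor that binds the egg protein Juno, and its relatives Izumo2 and Izumo3 had no interval. Gm4665 intervals nearest to them were weak, with mean folds of 5.86 at 71.3 kb from Izumo1, 6.39 at 18.8 kb from Izumo2 and 6.26 at 4.76 kb from Izumo3. Spam1, a surface hyaluronidase, and Prss21, a membrane-anchored serine protease, had none either, with the nearest at 64.4 and 28.0 kb. Start-site sequences of 3 genes are shown here to set a gene with a nearby interval beside genes without one, with matches in capitals to motifs known from spermatid promoters: the cAMP response element TGACGTCA, which the spermatid activator CREM binds, its core TGACG, and the TATA box TATAAA, each searched on both strands.
Tmem95, chr11:69878006-69878305, minus strand, interval 259 bp upstream of the window: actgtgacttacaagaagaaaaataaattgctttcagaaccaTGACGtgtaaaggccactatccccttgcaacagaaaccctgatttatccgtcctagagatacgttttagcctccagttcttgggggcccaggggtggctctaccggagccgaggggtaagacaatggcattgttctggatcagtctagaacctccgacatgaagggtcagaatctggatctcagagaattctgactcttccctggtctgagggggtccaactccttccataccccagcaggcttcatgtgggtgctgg
Izumo1, chr7:45621561-45621860, plus strand, no interval: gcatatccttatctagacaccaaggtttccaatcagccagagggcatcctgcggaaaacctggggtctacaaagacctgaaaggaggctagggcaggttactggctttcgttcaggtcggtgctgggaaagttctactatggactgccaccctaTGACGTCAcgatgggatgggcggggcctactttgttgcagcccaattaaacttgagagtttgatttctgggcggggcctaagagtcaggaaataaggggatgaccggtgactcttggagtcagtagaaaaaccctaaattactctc
Prm2, chr16:10792056-10792355, minus strand, no interval: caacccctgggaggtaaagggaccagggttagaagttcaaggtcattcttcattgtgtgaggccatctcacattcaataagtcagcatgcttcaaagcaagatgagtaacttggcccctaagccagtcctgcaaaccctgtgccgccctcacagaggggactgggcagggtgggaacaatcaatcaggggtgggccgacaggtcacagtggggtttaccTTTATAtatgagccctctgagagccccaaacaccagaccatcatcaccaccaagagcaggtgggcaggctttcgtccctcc
Tmem95 holds the core, Izumo1 the full element, in which the cores of both strands overlap, and Prm2 the reverse complement TTTATA of the TATA box. Only exact letters were matched, so variants of the element, such as TGACTTCA in the Prm1 window and TGATGTCA in that of Tnp1, were not counted. The full element was found in the windows of 1 of the 34 genes (Izumo1), beside 2.54% of protein-coding genes. The core occurred in 12 of the 34, beside 26.2%. The letters of the TATA box, on either strand and anywhere in the window, occurred in 3, beside 14.8%. In all 3 (Prm2, Spaca7 and Adam6a) they were the reverse complement TTTATA, so none of the 34 genes had exactly TATAAA on its own strand. Other TATA-like letters were not searched for, such as the TATATAT that overlaps the marked letters in the Prm2 window. The counts therefore do not show that these genes lack a TATA box. Of the 4 genes with an interval within 2 kb of a start site, Tmem95 and Dpy19l2 hold the core and Adam1a and Acrv1 hold none of these letters in this window.

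**Figure D4:**
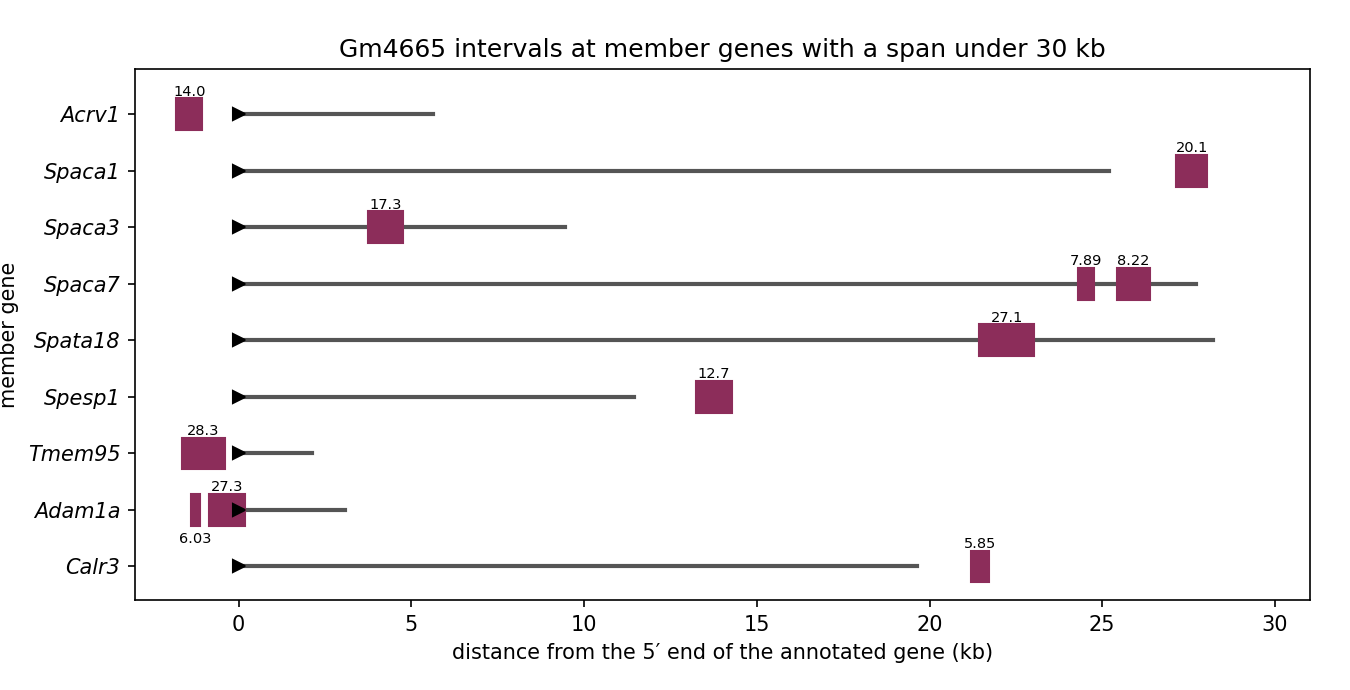
Gm4665 intervals (dark boxes, drawn to scale, with mean fold over 3 replicates) at the 9 genes with a known strand, an interval and a span under 30 kb; grey lines are the annotated genes and arrowheads their 5′ ends, with distance in kb on the horizontal axis. Boxes lie before or on the 5′ end at Acrv1, Tmem95 and Adam1a, inside Spaca3, Spaca7 and Spata18, and past the 3′ end at Spaca1, Spesp1 and Calr3.

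Of the ADAM genes, which encode sperm surface proteins with a disintegrin domain, 2 of 5 had intervals, beside 39.3% of protein-coding genes. Adam1a encodes the fertilin alpha subunit that pairs with ADAM2. Its interval on chromosome 5, from 121521520 to 121522563, was the only one of the 23 at genes with a listed strand to cover a start site, that of the promoter sequence printed above. Folds were 33.6, 22.2 and 26.1 (mean 27.3 ± 5.80, SD, n = 3), percentile 91.8 of the list. A short interval 1105 bp upstream, from 121522800 to 121523078, had 6.84, 5.33 and 5.92, well below the first in all 3 replicates. The nearest LacZ interval was 501 kb from Adam1a, the farthest of the 39. Adam3, which sperm need to enter the oviduct and bind the zona, had 2 intervals inside the gene on chromosome 8. Folds were 22.5, 13.0 and 16.6 from 24685277 to 24686295 and 19.5, 7.28 and 12.8 from 24712105 to 24712772. This second interval had the widest spread of replicates among the 27, with replicate 1 at 2.68 times replicate 2. The annotated spans of Adam3 and Adam5 are 715 bp apart. Adam5 spans 97277 bp and had no interval, the nearest being 5.42 kb off (11.1, 8.70 and 8.97). Of protein-coding genes of 20 to 100 kb, 54.1% had one. Adam2, the fertilin beta gene, and Adam6a had none; the nearest lay 5.50 kb from Adam2, in Ephx2, with folds of 33.1, 21.7 and 31.3.

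Sperm chaperones of the endoplasmic reticulum had weak intervals only. Calmegin (Clgn), calsperin (Calr3) and the disulfide isomerase homologue PDILT (Pdilt) are needed for mature ADAM3 on sperm. Pdilt had folds of 8.68, 7.48 and 8.64 in an interval inside the gene, from 119505219 to 119505602 on chromosome 7. Calr3 had 6.48, 4.90 and 6.17 in an interval 1566 bp past its 3′ end, from 72422089 to 72422610 on chromosome 8, which lay wholly inside the lncRNA gene Gm46043 and had the lowest summit coverage of the 27, 18 reads. Start sites of Eps15l1 and Gm46043 lay within 2 kb of this interval. Clgn had none, its nearest Gm4665 interval being 28.8 kb and its nearest LacZ interval 6.12 kb away.

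By position, 16 of the 23 intervals at genes with a listed strand lay inside the gene downstream of the start site, 3 in the upstream flank, 3 past the 3′ end and 1 over the start site. The 4 intervals at Acr and Adam3, whose strand is not listed, lay inside the gene. Because the 2 kb flank decides which genes count, those nearest to it are given. Just inside were Spaca1, with its interval 1954 bp from the gene, Spesp1 at 1779 bp and Calr3 at 1566 bp. Just outside were Pick1 at 3955 bp, Izumo3 at 4756 bp, Adam5 at 5421 bp and Adam2 at 5497 bp.

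Other genes of the same roles were listed by function, without regard to their intervals but with results of these data known, and 73 of 74 were found. Gm4665 intervals lay at 19 of the 73 (26.0%, beside 39.3% of protein-coding genes) and LacZ intervals at 8 (11.0%, beside 16.9%). The counts by role that follow stand beside the same 39.3% of protein-coding genes. They rest on few genes of unlike length, with median spans from 5076 bp (chaperones) to 21320 bp (acrosome formation). In acrosome formation 8 of 20 had a Gm4665 interval, led by Agfg1, needed for vesicle fusion into the acrosome (33.9, 25.6 and 34.1), and Spata46 (18.5, 19.05 and 16.5). In chromatin condensation 3 of 12 did, and the strongest interval of the 73 was at H1f6, the testis-specific linker histone gene, 672 bp upstream of its start site (40.2, 29.9 and 27.2). Within that group, Camk4, a kinase gene of late spermatids, was next with 31.0, 23.5 and 22.6 in the strongest of its 7 intervals. In sperm-egg recognition 4 of 11 had an interval, with Crisp1, a cysteine-rich secretory protein gene (11.6, 11.9 and 16.0), and Prss55, a serine protease gene (9.55, 12.6 and 9.87), the strongest. The kinase and polymerase group had 2 of 8, the poly(A) polymerase gene Papolg (28.6, 21.8 and 17.0) and the calcineurin subunit gene Ppp3cc (12.4, 10.8 and 16.4), and the chaperone group 2 of 14, calreticulin (Calr, 9.94, 9.19 and 18.5) and the tyrosine sulfotransferase gene Tpst2 (9.95, 9.03 and 7.62). None of the 8 further ADAM genes had a Gm4665 interval, and 1 of them, Adam18, had a LacZ interval. Intervals of both lists lay at 2 of the 73 genes, Camk4 and Papolg. Camk4 had 2 LacZ intervals, the stronger with folds of 30.8, 13.3 and 16.1. The LacZ interval of Papolg, from 23889019 to 23889359, had folds of 17.2, 6.84 and 11.0. It lay close to the Gm4665 interval of that gene, which ended at 23888295.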

How the data were processed

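Per the file headers, each row of the 2 deposited peak lists holds an interval, the authors' linear fold enrichment over input (a ratio) for each of 3 replicates, and a pileup signal as deposited (reads over the summit, replicate not named). The file names point to MACS2. Not given in the sources used here: its version and settings, the aligner, and how replicates were joined. Coordinates are 1-based on mm10, the build of the submitters' processing notes. Library totals were not used here, so depth is known only through the pileup.

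Repeated rows (649 in the Gm4665 list, 165 in the LacZ list) were joined at the highest fold of each replicate, and chromosomes 1 to 19, X and Y were kept. Genes came from a RefSeq table (GRCm38.p6); entries starting below 3 Mb outside Y were left out. Any overlap of 1 bp with the span plus 2 kb counted. Start sites came from a RefSeq promoter table; exons and introns were not separated. For the 39 genes, all intervals are named where a gene has up to 3, the strongest 3 otherwise; the weaker ones of Spata16 are given too. Of the related genes, the 2 with the highest mean Gm4665 fold in each role are named, with their strongest interval. Values are means ± SD of 3 replicates, with no test, since the replicates of a list share its intervals. The interval search was tested on simulated data. The genes and lists were chosen with earlier results of these data known. Python 3.11.15, pandas 2.3.3 and scipy 1.17.1 were used.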

Additional observations from a re-analysis of the deposited data

How the results depend on the processing

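The 16 genes with a Gm4665 interval numbered 11 to 23 with no flank, a 10 kb flank, a fold of at least 4, midpoints or LacZ overlaps removed. With the Gm4665 list shortened to its 9448 strongest intervals, the length of the LacZ list, they were 9, the related genes 5 and the density 6.93 per Mb, and the median mean fold was 21.2, since only strong intervals were kept. With a 10 kb flank the related genes with a Gm4665 interval were 34 and the genes with a LacZ interval 7, since more sequence was searched; the median mean fold was 10.3, and the cause was not tested. For these settings the share over all genes was not computed, so the counts are not set against a background. Within 2 kb of a listed start site, an alternative chosen after seeing the data, the counts were 4 for Gm4665 and 0 for LacZ. They were out of 34 genes, beside 8.42% and 2.71% of protein-coding genes. Without each replicate in turn, the median mean fold was 10.7 to 13.7 with Gm4665 probes and 13.4 to 18.0 with LacZ probes. No paired analysis was possible because no result comes from a test and the intervals are common to all 3 replicates of a list. Summit coverage of the 27 intervals was as low as 18 reads, at Calr3 (mean fold 5.85). The interval with the lowest mean fold, at Acr (4.41), had 23 reads. Any effect of depth was not tested.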

Other observations

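Of the 23 genes without an interval of their own, Spam1 and Adam2 had a strong nearest Gm4665 interval. At the others the nearest had mean folds of 5.86 (Izumo1) to 15.4 (Clgn). The median distance to the nearest one was 5.50 kb over the 39 genes. The interval nearest to Spam1, 64.4 kb from the gene and in no annotated gene, had folds of 44.0, 25.8 and 32.9 (mean 34.2 ± 9.14, SD, n = 3), and that nearest to Adam2, in Ephx2, had a mean fold of 28.7 ± 6.12 (SD, n = 3). Both means exceeded the 28.3 of the strongest interval at any of the 39 genes, that at Tmem95, which was itself at percentile 92.5 of the list. The replicate range of each overlapped that of the Tmem95 interval.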
